A study of Mus musculus with 36 samples.

Results

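The experiment described here set halofuginone with thapsigargin against BtdCPU with thapsigargin in mouse embryonic fibroblasts (MEFs) that lacked the kinase PERK. It used 6 of the 36 RNA-seq libraries of the study, chosen by the genotype and treatment in their labels, 3 for each compound. The whole series covers 2 genotypes, wild type (WT) and PERK -/- (called PERK-null below), and 6 treatments: DMSO as the solvent control, thapsigargin (Tg), either compound by itself, and either compound together with Tg, with 3 libraries in every group. All 6 libraries of the comparison share the missing kinase and the exposure to Tg, and the groups differ in the added compound. The labels call every sample a MEF line and give no dose, exposure time, batch or number of clones, and they do not say that replicates came from separate cultures. P-values therefore measure the spread between these samples, which may be technical. RNA came from bulk cells, so fewer cells of a type and less RNA per cell cannot be told apart.

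Thapsigargin blocks the calcium pump of the endoplasmic reticulum (ER), and the loss of calcium leaves proteins in the ER unfolded. PERK is the ER's own kinase for the translation factor eIF2 alpha. Its phosphorylation slows most protein synthesis and raises the translation of ATF4, which starts the integrated stress response (ISR), a programme of amino acid supply, transport and stress adaptation. Other kinases phosphorylate the same site: GCN2, which senses uncharged tRNA, HRI, which senses heme shortage and mitochondrial stress, and PKR, which senses double-stranded RNA. Halofuginone inhibits prolyl-tRNA synthetase and acts through GCN2, whereas BtdCPU is used as an activator of HRI. The comparison shows how transcript levels differ between these 2 compounds in cells that lack PERK. Whether GCN2 or HRI carried any of the differences was not tested.

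The 6 libraries held 35819931 to 36782700 counts, within the range of 32454257 to 37178107 over all 36. The first principal component of the 6 libraries separated the compounds and held 61.3% of the variance. The second held 12.1% and set replicate 3 of both groups apart from the others. All 10 fibroblast markers were above the floor of 3 counts in each library, with summed levels of 16901 to 18240 CPM (counts scaled to a common library total) with BtdCPU and 14778 to 16035 with halofuginone. Epcam and Krt5 (epithelium) and Myog, Myod1 and Myh3 (muscle) had no count in these libraries. Eif2ak3, the gene of PERK, averaged 9.95 CPM in PERK-null and 31.1 CPM in WT cells under DMSO. It averaged 20.8 and 74 CPM under BtdCPU with Tg, and 32.1 and 102 CPM under halofuginone with Tg, so the PERK-null level under halofuginone with Tg was near that of WT cells under DMSO and below that of WT cells given the same treatment. The labels do not say which part of the gene was removed, so a count over the whole gene checks the genotype only in part.

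The main contrast was large in number of genes. Of 16065 genes tested, 5874 (36.6%) differed at an adjusted p under 0.05, 2878 (17.9%) higher and 2996 (18.6%) lower with halofuginone. By at least 2-fold, 976 were higher and 641 lower, which is 10.1% of the genes tested. The median absolute difference over all genes was 0.39 on the log2 scale. For 53.2% of genes the CPM values of the groups did not overlap. Genes named below as list members or largest differences were picked by a rule that required no overlap. In them, its absence was set by the choice and is no added support. Log2 values below are halofuginone with Tg minus BtdCPU with Tg, unless another pair is named, and the adjusted p is that of edgeR's quasi-likelihood test with Benjamini-Hochberg adjustment over the 16065 genes. Each list of genes is described by its counts and its median, to be read against 17.9% higher, 18.6% lower and a median of 0.00 over all genes.

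**Figure D1:**
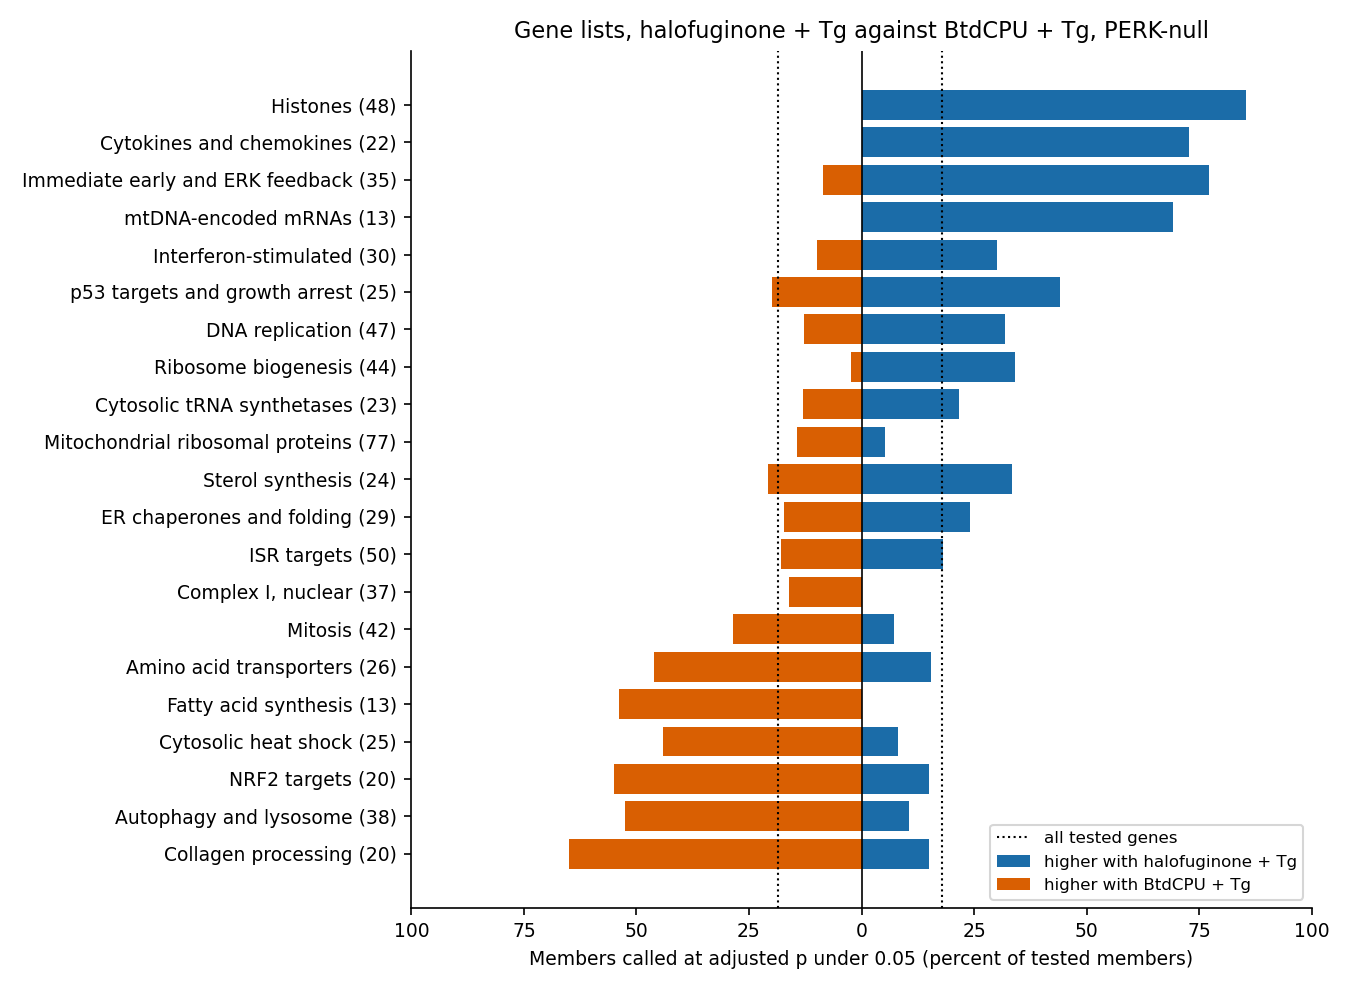
Percent of the tested members of 21 gene lists called at an adjusted p under 0.05, to the right where higher with halofuginone and Tg and to the left where higher with BtdCPU and Tg. The number tested stands in brackets, dotted lines mark the shares over all tested genes (17.9% and 18.6%), and lists are ordered by their median log2 difference: histones (41 of 48 higher) stand at the top and collagen processing (13 of 20 lower) at the bottom.

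The ISR target genes had a similar median level with both compounds, but single targets differed in both directions. Of 50 ISR target genes, 9 were higher and 9 lower with halofuginone, and the list's median was -0.02. These shares are near the 17.9% and 18.6% of all genes, so the median does not show that each target was level. Among the targets described below, Atf4 and Ddit3 differed by -0.72 and -0.87. Atf3, Tars and Vegfa went the other way, by 0.75, 0.55 and 0.80. Against Tg alone, the list's medians were 1.28 with halofuginone and 1.20 with BtdCPU. Both of these contrasts use the same 3 Tg libraries. Asns, which makes asparagine, measured 1135, 1129 and 1165 CPM in the BtdCPU libraries and 1115, 1176 and 1178 CPM in the halofuginone libraries, against a mean of 461 CPM with Tg alone. The groups overlapped, and the 95% interval of the log2 difference was -0.19 to 0.23. For Psat1, a serine synthesis enzyme, this interval was -0.28 to 0.18, and for Chac1, which degrades glutathione, it was -0.26 to 0.53. Neither passed the test (adjusted p = 0.767 and 0.630), which does not show that their levels were equal.

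The upstream transcription factors were not level. Atf4, the ISR's central factor, measured 1320.1, 1456 and 1335 CPM with BtdCPU and 832, 893 and 768 CPM with halofuginone, a log2 difference of -0.72 ± 0.11 (SE, adjusted p = 3.09e-06). Every BtdCPU library was above every halofuginone library, and the mean with Tg alone was 721 CPM. Ddit3, which encodes the factor CHOP, measured 374, 413 and 399.9 CPM with BtdCPU against 195, 252 and 201 CPM with halofuginone, and a mean of 47.8 CPM with Tg alone. Its log2 difference was -0.87 ± 0.20 (SE, adjusted p = 0.000976). Ddit3 overlaps Mars on the opposite strand, and whether counting used strand is not given in the sources used here. Trib3, a pseudokinase that ATF4 and CHOP raise and that holds them in check, was also lower with halofuginone, at -0.69 ± 0.26 (SE, adjusted p = 0.0379). That call was lost when any of the 6 libraries was left out (adjusted p from 0.0648 to 0.0947).

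Other stress factors were higher with halofuginone. Atf3, a repressor that ATF4 raises, measured 48.8, 49.3 and 55.3 CPM with BtdCPU and 77.6, 88.3 and 92.1 CPM with halofuginone, a difference of 0.75 ± 0.19 (SE, adjusted p = 0.00189). The groups did not overlap, and both were far above the 4.48 CPM of Tg alone. Nfil3, a leucine zipper repressor, differed by 0.81 ± 0.15 (SE, adjusted p = 9.94e-05). Cebpd, a C/EBP factor of inflammation, measured 3.59, 3.51 and 3.13 CPM with BtdCPU against 25, 19.6 and 20.3 CPM with halofuginone, a difference of 2.66 ± 0.27 (SE, adjusted p = 3.71e-09), and it overlaps Spidr on the opposite strand. Of the 15 ATF and C/EBP factors tested, 4 were higher and 2 lower.

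**Figure D2:**
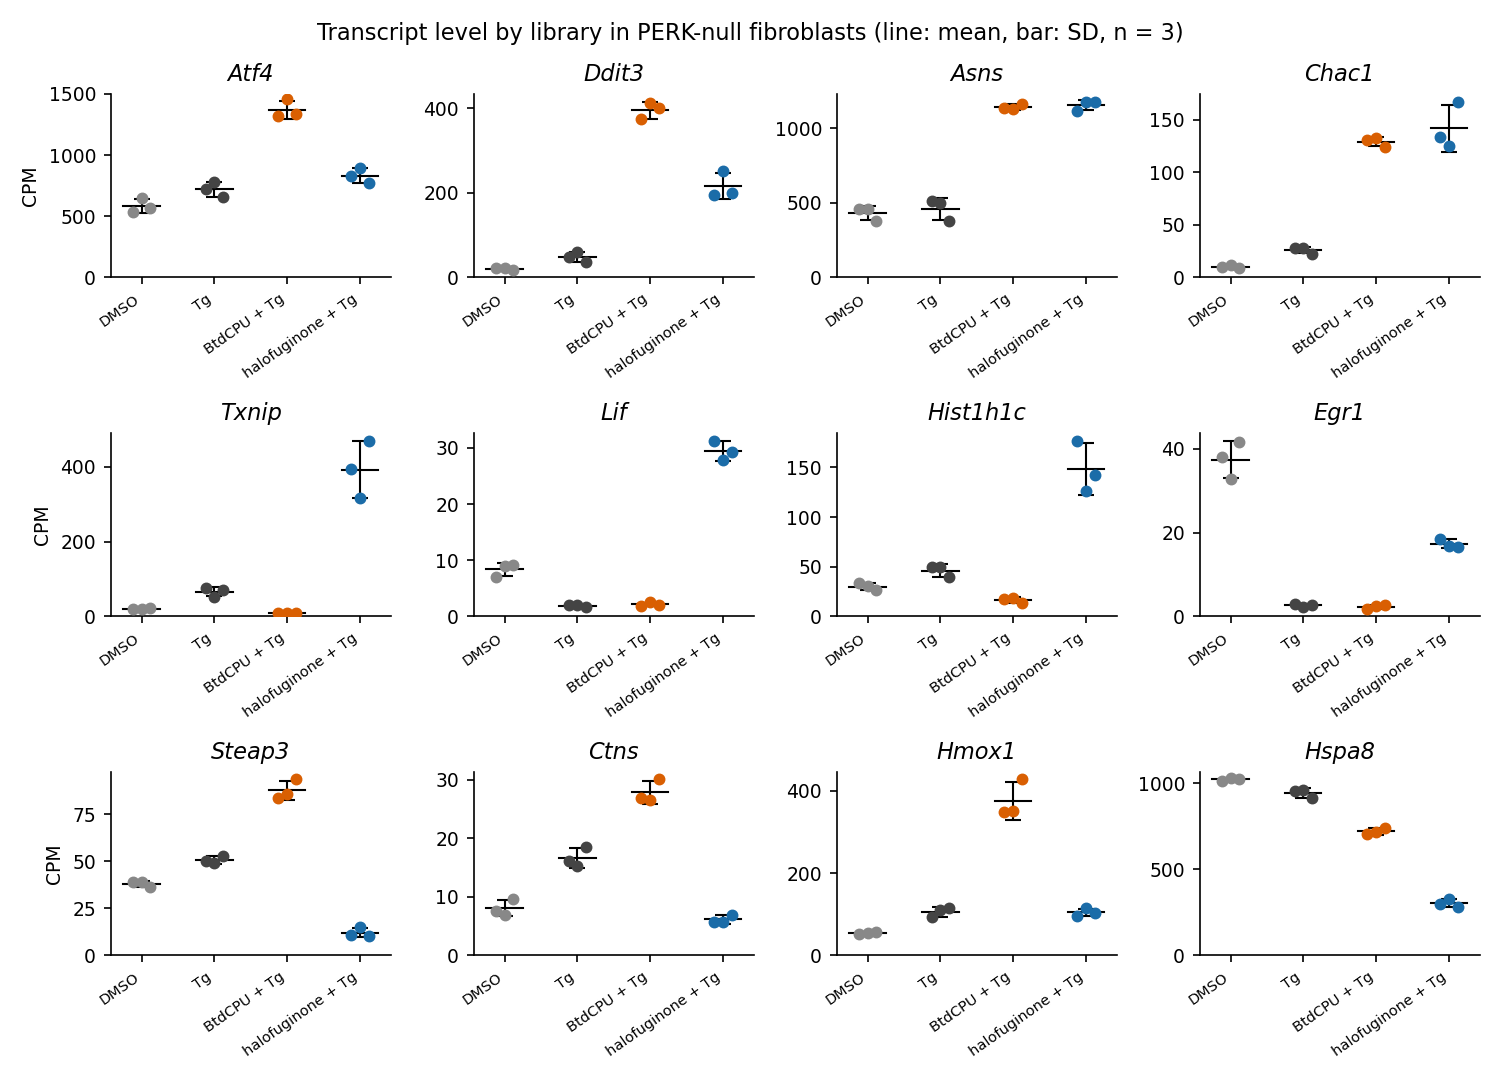
CPM of 12 genes in PERK-null cells under DMSO, Tg, BtdCPU with Tg and halofuginone with Tg, on linear axes that start at 0. Points are libraries, lines are means and bars are SD (n = 3). Asns and Chac1 overlap between the compounds, Atf4 and Ddit3 are higher with BtdCPU, the middle row is higher with halofuginone and the bottom row is higher with BtdCPU.

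Transcripts of the kinases differed less. Eif2ak4 (GCN2) measured 70.8, 65.4 and 76.5 CPM with BtdCPU and 71.9, 67.2 and 78.2 CPM with halofuginone, with a 95% interval of the log2 difference of -0.23 to 0.29. Eif2ak1 (HRI) gave an interval of -0.10 to 0.28, and Eprs, the bifunctional synthetase that halofuginone inhibits, gave -0.16 to 0.25. None of these passed the test. Eif2ak3 transcripts measured 20.8, 17.8 and 23.7 CPM with BtdCPU against 32.7, 28.1 and 35.4 CPM with halofuginone, higher with halofuginone by 0.63 ± 0.18 (SE, adjusted p = 0.00630). Eif2ak2 (PKR) was also higher, by 0.48 ± 0.17 (SE, adjusted p = 0.0269), but this call was lost without BtdCPU replicate 1 or 2 or halofuginone replicate 2 or 3 (adjusted p up to 0.117). Impact, an inhibitor of GCN2 activation, went the other way, with 7.25, 6.13 and 8.13 CPM under BtdCPU and 2.28, 2.37 and 2.46 CPM under halofuginone, a difference of -1.60 ± 0.19 (SE, adjusted p = 1.13e-07). The halofuginone libraries sat near the mean of 2.12 CPM with Tg alone.

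Of the 23 cytosolic tRNA synthetase genes, 5 were higher and 3 lower, against 17.9% and 18.6% of all genes. The number higher was 2 without BtdCPU replicate 1 or halofuginone replicate 2, and 3 without BtdCPU replicate 2 or halofuginone replicate 1. Tars, for threonine, measured 793, 745 and 761 CPM with BtdCPU and 1089.6, 1159 and 1116 CPM with halofuginone, with no overlap. Rars, for arginine, differed by 0.54 ± 0.11 (SE, adjusted p = 0.000352), close to the 0.55 of Tars. Among 17 mitochondrial synthetases, 3 were higher and 8 lower, with a median of -0.24.

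Genes that handle amino acids were more often lower with halofuginone. Of 26 amino acid transporters, 4 were higher and 12 lower, with a median of -0.26, and 2 were higher without BtdCPU replicate 1 or 2 or halofuginone replicate 2. Slc1a3, a glutamate and aspartate importer, measured 131, 102 and 148 CPM with BtdCPU and 56.2, 50.1 and 60.8 CPM with halofuginone. The groups did not overlap, and the difference was -1.19 ± 0.18 (SE, adjusted p = 5.26e-06). Slc38a9, the arginine sensor of the lysosome that signals to mTORC1, differed by -1.15 ± 0.18 (SE, adjusted p = 5.04e-06). In the other direction stood Slc43a2, an exporter of large neutral amino acids, with 1.04, 0.735 and 1.05 CPM with BtdCPU against 4.9, 3.52 and 4.27 CPM with halofuginone and a difference of 2.16 ± 0.35 (SE, adjusted p = 1.12e-05). Of 9 proline enzymes, 1 was higher and 4 were lower: Prodh, which degrades proline, was higher by 1.19 (adjusted p = 0.00349), and Oat, which links ornithine to proline synthesis, differed by -0.49 (adjusted p = 6.60e-05).

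The largest difference among the named genes was in Txnip, the arrestin-like protein that curbs glucose uptake and binds thioredoxin. Txnip measured 9.53, 9.39 and 9.92 CPM with BtdCPU and 395, 315 and 468 CPM with halofuginone, a log2 difference of 5.35 ± 0.38 (SE, adjusted p = 3.79e-12). The Tg libraries lay between the groups with a mean of 66.7 CPM. Against them Txnip was higher with halofuginone by 2.56 (adjusted p = 1.14e-07) and differed with BtdCPU by -2.79 (adjusted p = 1.89e-07). Both differences rest on the same Tg libraries. Txnip overlaps the transcript Gm15441 on the opposite strand, so its count is uncertain where counting ignored strand. Arrdc4, its close relative, which also curbs glucose uptake, measured 1.02, 0.953 and 1.05 CPM with BtdCPU and 9.93, 9.0 and 9.83 CPM with halofuginone, a difference of 3.24 ± 0.22 (SE, adjusted p = 1.18e-12).

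Txnip and Arrdc4 are known targets of the glucose-sensing factors MondoA and ChREBP, which bind a carbohydrate response element made of a pair of E-boxes. Such a pair, CACGNG on both sides of a spacer of NNNNN, was searched on both strands in the RefSeq window from 250 bases before to 50 after each gene's start (GRCm38.p6). It was found in 11 of 11158 tested genes with a window, 0.0986%, among them Txnip. Of the 580 genes called higher with halofuginone by at least 2-fold, Txnip was the 1 with a match (0.172%), and the window of Arrdc4 held none. The stretch before the Txnip start is shown because this gene carried the largest difference. It lies at chr3:96557707-96557956 on the + strand, capitals mark the match, and the match begins 85 bases before the start. It describes the letters only and shows no binding.
Txnip: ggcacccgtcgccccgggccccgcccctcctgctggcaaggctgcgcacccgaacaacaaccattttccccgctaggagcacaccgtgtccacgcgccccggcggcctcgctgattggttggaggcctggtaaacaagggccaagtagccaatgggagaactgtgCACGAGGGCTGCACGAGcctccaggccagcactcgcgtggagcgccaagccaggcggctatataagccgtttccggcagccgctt

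Of 30 genes of glycolysis and its control, 5 were higher with halofuginone, Txnip and Arrdc4 among them, and 11 were lower, with a median of -0.26. Pfkm, a phosphofructokinase, measured 93.8, 94.6 and 94.9 CPM with BtdCPU and 35.9, 36.9 and 31.5 CPM with halofuginone, a difference of -1.44 ± 0.13 (SE, adjusted p = 2.65e-10), and it overlaps Senp1 on the opposite strand. The groups stood clear of each other. Eno2, an enolase, differed by -1.13 (adjusted p = 0.00293), and Pfkfb4, which sets the level of a phosphofructokinase activator, by -1.07 (adjusted p = 3.50e-05). Pdk4, which shuts pyruvate out of the mitochondrial oxidation route, was among the 5 higher genes, with 1.69, 2.67 and 2.0 CPM with BtdCPU against 7.62, 5.62 and 6.54 CPM with halofuginone and a difference of 1.64 ± 0.26 (SE, adjusted p = 9.69e-06).

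Histone transcripts had the largest share of members higher with halofuginone among the plotted lists. Of 48 histone genes, 41 were higher with halofuginone and 0 lower, and the median was 2.14. The 7 others did not pass, and the smallest difference of the list was 0.17. Hist1h1c, a linker histone, measured 17.7, 18.5 and 13.3 CPM with BtdCPU and 177, 126 and 142 CPM with halofuginone, a difference of 3.17 ± 0.25 (SE, adjusted p = 2.55e-11). The mean with Tg alone was 46.2 CPM, between the groups. Hist1h1d, another linker histone, measured 0.562, 0.490 and 0.621 CPM with BtdCPU against 9.53, 7.2 and 8.9 CPM with halofuginone, and Hist1h1b 0.321, 0.136 and 0.324 CPM with BtdCPU against 3.15, 1.83 and 3.92 CPM with halofuginone, so both were scarce with BtdCPU. Hist1h2ac, a core histone, differed by 3.50 ± 0.40 (SE, adjusted p = 3.05e-08). Histone genes have near-identical copies between which reads can be split, and most of their mRNAs have no poly(A) tail. The labels name both ribosomal depletion and mRNA selection without saying how they were combined.

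Other genes of the cell cycle differed less and in both directions. Of 47 DNA replication genes, 15 were higher and 6 lower, with a median of 0.18. Rrm2, a subunit of ribonucleotide reductase, measured 79, 80.8 and 77.6 CPM with BtdCPU and 163, 154 and 162 CPM with halofuginone, with no overlap. Ccne2, a cyclin of S-phase entry, differed by 1.51 ± 0.31 (SE, adjusted p = 0.000240) and overlaps Ints8 on the opposite strand. Chaf1b, a subunit of the factor that loads histones behind the replication fork, was lower with halofuginone, 86.7, 87.4 and 94.7 against 42.8, 38.4 and 43.2 CPM, a difference of -1.11 ± 0.14 (SE, adjusted p = 1.81e-07). Of 42 mitosis genes, 3 were higher (1 without BtdCPU replicate 3 or halofuginone replicate 1 or 2) and 12 lower, among them the kinesin Kif20a at -0.79 (adjusted p = 3.75e-05).

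Among 25 p53 targets and growth arrest genes, 11 were higher with halofuginone and 5 lower, or 2 lower without halofuginone replicate 3. Gadd45g, a stress-induced arrest factor, measured 8.86, 8.44 and 11 CPM with BtdCPU and 86.9, 55.4 and 125 CPM with halofuginone, a difference of 3.24 ± 0.36 (SE, adjusted p = 2.56e-08). The halofuginone libraries varied more than 2-fold among themselves, and all stood above the BtdCPU libraries. Plk2, a kinase of the stress response, measured 406, 406 and 409 CPM with BtdCPU against 1154, 1186 and 1359 CPM with halofuginone, a difference of 1.60 ± 0.20 (SE, adjusted p = 1.64e-07). Btg2, an antiproliferative gene, differed by 1.88 ± 0.18 (SE, adjusted p = 8.95e-10). In the BCL2 family, 2 of 14 were higher and 3 lower, and Mcl1, which guards against apoptosis, was higher by 1.22 ± 0.09 (SE, adjusted p = 2.46e-12).

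Immediate early genes and the feedback genes of the ERK pathway, which growth signals switch on within minutes to hours, were mostly higher with halofuginone: 27 of 35 were higher and 3 lower, with a median of 0.90. Egr1, a zinc finger factor, measured 1.82, 2.4 and 2.81 CPM with BtdCPU and 18.5, 16.9 and 16.6 CPM with halofuginone, a difference of 2.89 ± 0.25 (SE, adjusted p = 1.64e-10). The Tg mean of 2.67 CPM was near the BtdCPU libraries, while DMSO cells averaged 37.5 CPM. Dusp6, the phosphatase that switches ERK off, followed the same order, with 3.37, 3.4 and 3.95 CPM under BtdCPU, 19.4, 16.1 and 14.3 CPM under halofuginone and 37.2 CPM under DMSO. Jun, part of the AP-1 factor, differed by 2.19 ± 0.14 (SE, adjusted p = 1.49e-13), and it overlaps Junos on the opposite strand. Hbegf, a ligand of the EGF receptor that lies upstream of ERK, measured 11.6, 11.4 and 10.1 CPM with BtdCPU against 92.2, 82.2 and 96.9 CPM with halofuginone, a difference of 3.04 ± 0.20 (SE, adjusted p = 8.24e-13).

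Cytokine genes were also one-sided. Of 22 tested, 16 were higher with halofuginone and 0 lower, with a median of 1.63. Lif, a cytokine of the IL-6 family, measured 1.9, 2.5 and 2.03 CPM with BtdCPU and 31.3, 27.8 and 29.4 CPM with halofuginone, a difference of 3.78 ± 0.16 (SE, adjusted p = 5.05e-17). Cxcl1, which attracts neutrophils, measured 17.4, 21.4 and 11 CPM with BtdCPU against 112, 125 and 94.2 CPM with halofuginone, with no overlap. Il6 and Ccl20, an inflammatory cytokine and a chemokine, were scarce: Il6 reached 6.8, 6.14 and 3.15 CPM and Ccl20 3.71, 3.24 and 4.27 CPM with halofuginone, and their log2 differences were 3.45 ± 0.57 (SE, adjusted p = 1.59e-05) and 3.87 ± 0.53 (SE, adjusted p = 1.27e-06). Il11 differed by 1.62 ± 0.23 (SE, adjusted p = 1.12e-06). Vgf, a neurosecretory precursor on none of the lists, differed by 3.30 ± 0.28 (SE, adjusted p = 1.32e-10).

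In the interferon-stimulated list 9 of 30 genes were higher and 3 lower, with a median of 0.61. The number higher was 18 with no filter on low counts and 21 when only the compared groups entered the fit. H2-K1, a class I antigen-presenting molecule, measured 2.54, 3.08 and 2.11 CPM with BtdCPU and 8.42, 8.59 and 7.84 CPM with halofuginone, a difference of 1.68 ± 0.18 (SE, adjusted p = 1.27e-08). Usp18, which dampens interferon signalling, measured 1.15, 0.545 and 1.38 CPM with BtdCPU against 8.81, 7.61 and 8.61 CPM with halofuginone, a difference of 3.02 ± 0.86 (SE, adjusted p = 0.00660). Both were scarce in these cells.

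The AP-1 site TGACTCA, searched on both strands in the same windows, was found in 58 of 580 genes called higher with halofuginone by at least 2-fold (10%). It was found in 26 of 460 called lower by that much (5.65%) and in 5.32% of all 11158. These shares are a description, and no match says only that the letters are not in the window.

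Of 23 genes of the TGF beta response and of the contractile fibroblast, 9 were higher and 3 lower. Ctgf, a matricellular growth factor gene, measured 29.8, 28.9 and 20.8 CPM with BtdCPU and 178, 169 and 223 CPM with halofuginone, a difference of 2.84 ± 0.33 (SE, adjusted p = 5.75e-08). Thbs1, an extracellular activator of TGF beta, measured 153, 162 and 146 CPM with BtdCPU against 455, 454 and 611 CPM with halofuginone, with no overlap. Acta2, smooth muscle actin, was among the 3 lower genes, with 2655, 2534 and 3375 CPM with BtdCPU against 1349, 1320.3 and 1595 CPM with halofuginone and a difference of -1.01 ± 0.25 (SE, adjusted p = 0.00177).

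Collagen processing was the list with the largest share lower with halofuginone among those plotted: 13 of 20 lower and 3 higher, with a median of -0.44. P4ha2, a prolyl 4-hydroxylase that stabilises the collagen helix, measured 68.8, 67.3 and 67.6 CPM with BtdCPU and 29.9, 36.6 and 28.8 CPM with halofuginone, a difference of -1.10 ± 0.12 (SE, adjusted p = 7.70e-09). The 3-hydroxylases P3h1 and P3h3 differed by -0.66 (adjusted p = 0.000107) and -0.81 (adjusted p = 2.95e-07). Of 24 collagens, 7 were higher and 7 lower, or 4 lower without halofuginone replicate 1. Col5a3 was higher, at 11, 8.28 and 9.65 CPM with BtdCPU and 23.7, 22.4 and 26.6 CPM with halofuginone.

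Lysosome and autophagy genes were mostly lower with halofuginone: 20 of 38 were lower and 4 higher, with a median of -0.42. Against Tg alone, the list's median was -0.31 with halofuginone and 0.09 with BtdCPU, with the Tg libraries shared. Ctns, the lysosomal cystine exporter, measured 26.9, 26.5 and 30.2 CPM with BtdCPU and 5.69, 5.78 and 6.97 CPM with halofuginone, a difference of -2.18 ± 0.23 (SE, adjusted p = 9.00e-09). Npc1, which exports cholesterol from the lysosome, measured 122, 111 and 153 CPM with BtdCPU against 42.9, 43.4 and 50.7 CPM with halofuginone, a difference of -1.49 ± 0.17 (SE, adjusted p = 3.33e-08). It overlaps 3110002H16Rik on the opposite strand. Mcoln1, the lysosomal calcium channel, differed by -0.98 ± 0.14 (SE, adjusted p = 9.43e-07). Gpnmb, a glycoprotein gene that lysosomal stress raises, differed by -1.09 ± 0.31 (SE, adjusted p = 0.00542).

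Steap3, an endosomal metalloreductase that reduces iron taken up with transferrin, measured 83.6, 85.6 and 93.4 CPM with BtdCPU and 10.9, 15.1 and 10.5 CPM with halofuginone, a difference of -2.85 ± 0.15 (SE, adjusted p = 7.87e-15). BtdCPU lay above the Tg mean of 50.7 CPM by 0.79 (adjusted p = 3.84e-05) and halofuginone differed from it by -2.06 (adjusted p = 5.25e-13), again on shared Tg libraries. Macrophage markers, some of which are lysosomal, moved with this group: their summed level was 14.7 to 23.2 CPM with BtdCPU and 5.25 to 6.30 CPM with halofuginone, 2 of 3 tested markers were lower, and Tyrobp had no count. Their part in the result was not tested.

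Many lysosomal genes carry an E-box that TFEB and TFE3, the factors of lysosome supply, bind. Its core TCACGTGA, searched on both strands, was found in 4 of the 30 listed genes that had a window (13.3%), in 20 of the 460 genes called lower by at least 2-fold (4.35%), in 7 of the 580 called higher (1.21%) and in 2.03% of all. Stretches from 3 of the 4 listed genes are shown because the match lies before their start, 99 bases before it in Ctsd, 46 in Mcoln1 and 72 in Atg3. The fourth is Atp6v0d1, a subunit of the proton pump. Mcoln1 fell under the naming rule and the others were chosen after their values were seen: Ctsd, a lysosomal protease, was lower with halofuginone by a log2 difference of -0.83 (adjusted p = 2.59e-10), whereas Atg3, an autophagy conjugating enzyme, was higher by 0.42 (adjusted p = 0.00327). The match was thus held by genes that differed in both directions. The stretches lie at chr7:142387828-142388077 on the - strand, chr8:3500269-3500518 on the + strand and chr16:45158579-45158828 on the + strand (RefSeq, GRCm38.p6), with capitals on the match.
Ctsd: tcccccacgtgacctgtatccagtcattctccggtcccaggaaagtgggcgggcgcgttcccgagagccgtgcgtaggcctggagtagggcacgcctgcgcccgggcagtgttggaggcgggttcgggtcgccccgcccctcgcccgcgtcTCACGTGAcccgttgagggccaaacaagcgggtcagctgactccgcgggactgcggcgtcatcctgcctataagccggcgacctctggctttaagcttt
Mcoln1: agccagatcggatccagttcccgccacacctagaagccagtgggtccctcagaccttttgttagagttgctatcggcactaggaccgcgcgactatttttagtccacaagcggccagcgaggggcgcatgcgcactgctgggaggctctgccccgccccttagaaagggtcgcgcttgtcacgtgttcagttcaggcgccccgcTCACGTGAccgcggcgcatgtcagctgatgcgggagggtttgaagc
Atg3: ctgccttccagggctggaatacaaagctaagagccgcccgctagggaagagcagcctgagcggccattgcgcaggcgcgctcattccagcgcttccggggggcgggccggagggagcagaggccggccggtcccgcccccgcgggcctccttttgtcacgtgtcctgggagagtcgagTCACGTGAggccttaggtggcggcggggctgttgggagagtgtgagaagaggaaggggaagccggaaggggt

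Targets of NRF2, the factor of the oxidant response, were lower with halofuginone in 11 of 20 cases and higher in 3 (1 without halofuginone replicate 1), with a median of -0.42. Hmox1, heme oxygenase, measured 347, 350.5 and 428 CPM with BtdCPU and 95.5, 115 and 103 CPM with halofuginone, a difference of -1.84 ± 0.17 (SE, adjusted p = 3.98e-10). The halofuginone libraries surrounded the mean of 106 CPM with Tg alone. The glutathione transferases Gsta4 and Gstm1 differed by -1.50 (adjusted p = 2.31e-06) and -1.19 (adjusted p = 9.52e-06), yet both compounds lay below the Tg means of 14.7 and 62.6 CPM. Of 17 genes of transsulfuration and glutathione, 8 were lower and 0 higher, and 5 were lower without halofuginone replicate 3.

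Cytosolic heat shock genes were lower with halofuginone in 11 of 25 cases and higher in 2 (1 without BtdCPU replicate 1 or 3 or halofuginone replicate 2). Hspa8, the constitutive HSC70, measured 704, 715 and 743 CPM with BtdCPU and 300.5, 328 and 283 CPM with halofuginone, a difference of -1.25 ± 0.08 (SE, adjusted p = 5.41e-13). The Tg mean was 944 CPM, above both. Hspa8 hosts small nucleolar RNAs on its own strand. Cryab, a small heat shock protein gene, measured 23.7, 25.5 and 36.3 CPM with BtdCPU against 5.21, 6.71 and 7.13 CPM with halofuginone, a difference of -2.17 ± 0.26 (SE, adjusted p = 1.11e-07), and overlaps Hspb2 on the opposite strand. Hspa1a and Hspa1b, the inducible HSP70 genes, are near-identical copies with uncertain separate counts, and differed by -1.43 (adjusted p = 9.81e-05) and -1.52 (adjusted p = 2.71e-05).

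ER folding genes differed in both directions: of 29 tested, 7 were higher and 5 lower, against 17.9% and 18.6% of all genes. The list's median was -0.01, and 3 genes were lower without BtdCPU replicate 1 or 3 or halofuginone replicate 3. Hspa5, the main ER chaperone BiP, measured 9609, 10686 and 11977 CPM with BtdCPU and 14039, 15730.2 and 12760.1 CPM with halofuginone, a difference of 0.40 ± 0.14 (SE, adjusted p = 0.0256). The call was lost without replicate 1 or 2 of either group (adjusted p up to 0.133). Dnajb9, a cochaperone of BiP, measured 38, 31.9 and 42.2 CPM with BtdCPU against 62.2, 62 and 57.7 CPM with halofuginone, a difference of 0.70 ± 0.15 (SE, adjusted p = 0.000437). Creld2, a folding factor that ER stress raises, differed by 0.86 ± 0.14 (SE, adjusted p = 1.68e-05). Of 35 genes of ER-associated degradation and the translocon, 7 were higher and 5 lower, but these counts rested on single libraries. The number higher was 1 without BtdCPU replicate 2, 2 without BtdCPU replicate 1 and 3 or 4 without any other, and the number lower was 8 without BtdCPU replicate 1 and 3 without BtdCPU replicate 3 or halofuginone replicate 1.

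Transcripts of mitochondrial DNA were higher with halofuginone: 9 of 13 mRNAs were called higher and 0 lower, with a median of 0.80. The number called was 5 without BtdCPU replicate 1 or 3 or halofuginone replicate 2. CYTB, of respiratory complex III, measured 1661, 1755 and 1269.9 CPM with BtdCPU and 4081, 4158 and 3632 CPM with halofuginone, a difference of 1.34 ± 0.26 (SE, adjusted p = 0.000130). Tg cells averaged 4470.4 CPM, near the halofuginone libraries. The complex I subunits ND4, ND4L and ND6 differed by 1.08, 1.04 and 0.98 (adjusted p = 0.000325, 0.000688 and 0.000452). Over the 13 mRNAs, the median against Tg alone was -0.26 with halofuginone and -0.94 with BtdCPU, on the same Tg libraries. ND6 is encoded on the other strand of mitochondrial DNA from the rest of the list.

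The entries Rnr1 and Rnr2 went the other way and were the largest differences in that direction among the named genes. Rnr1 measured 2650.3, 3178 and 2874 CPM with BtdCPU and 213, 271 and 206 CPM with halofuginone, a difference of -3.66 ± 0.25 (SE, adjusted p = 1.18e-12). Rnr2 measured 8100.0, 8911 and 10405 CPM with BtdCPU against 778, 793 and 661 CPM with halofuginone, a difference of -3.62 ± 0.31 (SE, adjusted p = 9.99e-11). Their means with Tg alone were 387 and 920.5 CPM, so the BtdCPU libraries were the ones that stood apart. Neither symbol matched the RefSeq gene table, and some annotations give these names to the ribosomal RNAs of mitochondrial DNA. Whether these entries count such RNA cannot be settled from the symbol, and the level of any ribosomal RNA depends on how it was depleted.

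**Figure D3:**
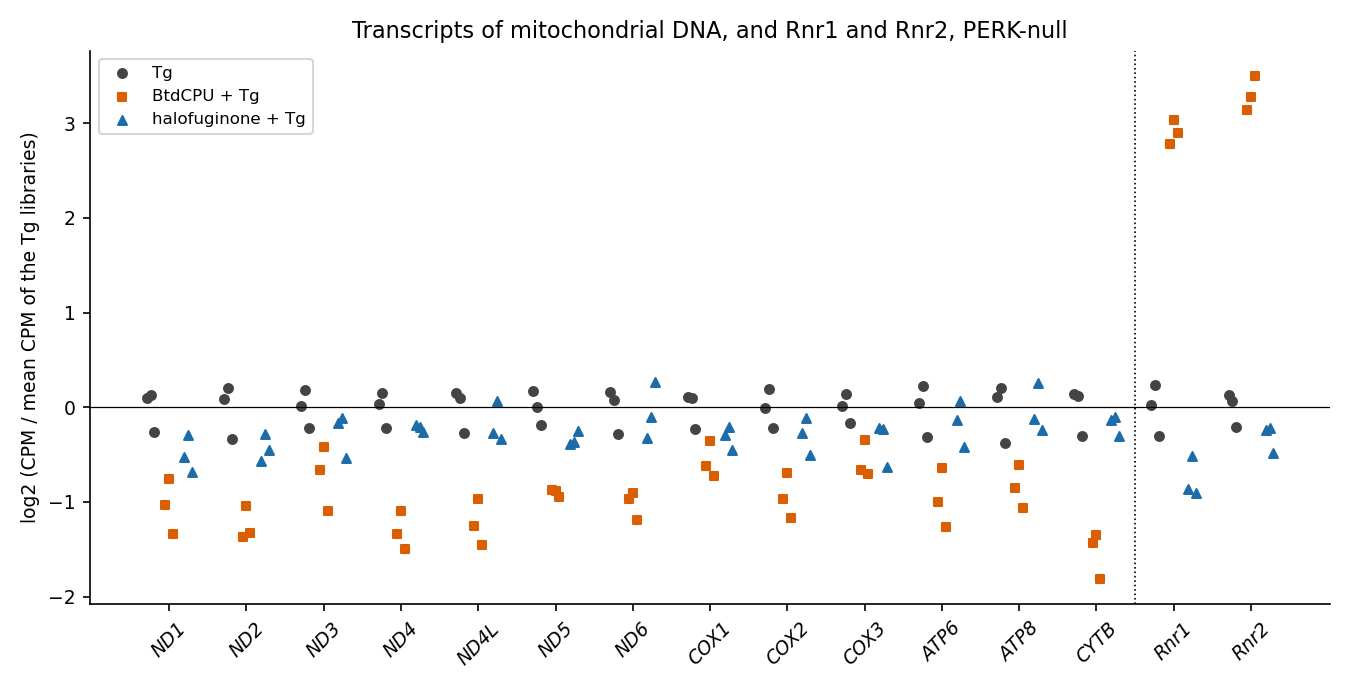
Log2 ratio of each PERK-null library's CPM to the mean of the 3 Tg libraries, for the 13 mRNAs of mitochondrial DNA and, right of the dotted line, the entries Rnr1 and Rnr2. For CYTB the BtdCPU libraries (squares) lie lowest and the halofuginone libraries (triangles) near the Tg libraries (circles), while for Rnr1 and Rnr2 the BtdCPU libraries lie highest.

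Nuclear genes of the respiratory chain differed little: of 37 for complex I, 0 were higher and 6 lower, and of 39 for the other complexes, 0 were higher and 7 lower, or 4 lower without halofuginone replicate 3. Ndufv3, of complex I, differed by -0.86 ± 0.13 (SE, adjusted p = 2.87e-06). Of 29 genes of mitochondrial dynamics and transcription, 4 were higher (2 without BtdCPU replicate 2 or halofuginone replicate 3) and 4 lower. Ppargc1b, a coactivator of mitochondrial biogenesis, measured 5.3, 4.14 and 4.13 CPM with BtdCPU and 1.35, 1.28 and 1.56 CPM with halofuginone, a difference of -1.69 ± 0.35 (SE, adjusted p = 0.000247). The Tg mean was 1.06 CPM, near the halofuginone libraries. Polrmt, the RNA polymerase of mitochondria, differed by -0.68 (adjusted p = 2.55e-05) and Lrpprc, which stabilises mitochondrial mRNAs, by -0.48 (adjusted p = 4.41e-05), in the direction opposite to the mRNAs. Of 77 mitochondrial ribosomal protein genes, 4 were higher (2 without halofuginone replicate 2) and 11 lower, with a median of 0.04.

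Polr2a, the largest subunit of RNA polymerase II, was among the 10 largest differences lower with halofuginone. It measured 349, 349 and 406 CPM with BtdCPU and 73.1, 80 and 80.2 CPM with halofuginone, a difference of -2.24 ± 0.23 (SE, adjusted p = 4.10e-09), and the Tg mean was 497 CPM. Klhl24, a ubiquitin ligase adaptor, differed by -2.20 ± 0.16 (SE, adjusted p = 2.46e-12), Layn, a hyaluronan receptor, by -2.29 ± 0.13 (SE, adjusted p = 5.04e-14), and Plin4, a lipid droplet coat protein, by -2.59 ± 0.38 (SE, adjusted p = 2.65e-06). Plin4 overlaps Hdgfrp2 on the opposite strand. Kif21b, a kinesin, differed by -0.94 (adjusted p = 0.0118), a call lost without BtdCPU replicate 3 or halofuginone replicate 1 (adjusted p = 0.113 and 0.0558).

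Of 44 ribosome biogenesis genes, 15 were higher with halofuginone and 1 lower. Without halofuginone replicate 2, 9 were higher, and 0 were lower when any other of the 6 libraries was left out. Tsr1 and Wdr43, assembly factors of the small subunit, differed by 0.82 (adjusted p = 1.37e-08) and 0.82 (adjusted p = 6.28e-06), and Tsr1 overlaps Srr on the opposite strand. Of 80 cytosolic ribosomal protein genes, 1 was higher, against 17.9% of all genes, and 16 were lower, a share near the 18.6% of all genes. The list's median was -0.22. Without halofuginone replicate 3, 2 were higher and 6 lower, and without BtdCPU replicate 3 or halofuginone replicate 1, 0 were higher. Rps15 measured 659, 658 and 597 CPM with BtdCPU and 362, 398 and 265 CPM with halofuginone.

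Of 24 sterol synthesis genes, 8 were higher and 5 lower, or 3 lower without BtdCPU replicate 2 or halofuginone replicate 3. Hmgcs1, at the entry of the pathway, measured 100., 125 and 102 CPM with BtdCPU and 149.6, 192 and 120.2 CPM with halofuginone, and the groups overlapped. Its difference of 0.50 ± 0.18 (SE, adjusted p = 0.0331) was lost without BtdCPU replicate 1 or 3 or halofuginone replicate 1 or 2 (adjusted p up to 0.261). Hsd17b7 was higher by 1.14 ± 0.19 (SE, adjusted p = 1.63e-05), and Nsdhl, another late enzyme, differed by -0.84 ± 0.17 (SE, adjusted p = 0.000175). All 3 lay below their Tg means under both compounds. Fatty acid synthesis had 7 of 13 lower and 0 higher, with Acacb at -1.51 (adjusted p = 0.000639) and Fasn, fatty acid synthase, at -0.62 (adjusted p = 0.00657).

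Of the 21 tested targets of PPAR and of the aryl hydrocarbon receptor, 5 were higher and 5 lower. Cyp1b1, a classical target of the latter, measured 1.69, 2.21 and 1.22 CPM with BtdCPU and 10.9, 9.0 and 12 CPM with halofuginone, a difference of 2.64 ± 0.22 (SE, adjusted p = 5.55e-11). Tg alone averaged 22 CPM, above both. Among secreted ISR products, 2 of 10 were higher, a share near the 17.9% of all genes, and 0 were lower, with a median of 0.52. The 2 were Vegfa and Angptl4. Vegfa, the angiogenic factor, measured 97.4, 87.3 and 98.7 CPM with BtdCPU against 174, 156 and 161 CPM with halofuginone. Angptl4, an inhibitor of lipoprotein lipase, differed by 2.48 ± 0.40 (SE, adjusted p = 9.34e-06).

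Whether a difference between the compounds depended on genotype was tested as the PERK-null difference minus the WT difference, both under Tg. The labels do not give the number of clones, so PERK loss cannot be told apart from other differences between the cell lines. It passed for 1458 of 16065 genes (9.08%), 599 (3.73%) positive and 859 (5.35%) negative, and 1006 of them were also called in PERK-null cells. With scaling by library size alone the split was 997 positive and 602 negative of 1599, with the median of all genes at 0.13 in place of 0.02. Without WT halofuginone replicate 3, 971 passed. Read against 9.08%, 12 of 38 lysosome genes, 7 of 13 mitochondrial mRNAs, 11 of 35 immediate early and ERK genes and 8 of 22 cytokine genes passed. These list counts were not checked in the alternatives given below. Among the mitochondrial mRNAs, CYTB, ND4, ND4L and ND6 each missed the threshold when certain single libraries were left out. Median differences were -0.42 in PERK-null and -0.06 in WT cells for the lysosome list, 0.80 and -0.20 for mitochondrial mRNAs, and 1.63 and 0.67 for cytokines. For the immediate early and ERK list they were 0.90 in PERK-null and 1.06 in WT cells, so that list was not higher in PERK-null cells alone.

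Single genes show the contrast of genotypes. Hspa8 differed by -1.25 in PERK-null and 0.10 in WT cells, and the difference between genotypes was -1.35 (adjusted p = 3.17e-09). Cyp1b1 gave 2.64 and -0.35, Ccl20 3.87 and -0.21, and Il6 3.45 and 0.36, and for all 3 the difference between genotypes passed. Ctns gave -2.18 and -0.12. For Pfkfb4 and Eno2 the sign turned: -1.07 and -1.13 in PERK-null against 1.39 and 1.36 in WT cells. Il11 was higher with halofuginone in both, by 1.62 in PERK-null and 4.16 in WT cells, and the difference was -2.54 (adjusted p = 1.69e-06). For Rnr1, Rnr2, Hbegf and Btg2 the genotype test did not pass, with WT differences of -3.35, -3.76, 3.00 and 1.88.

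**Figure D4:**
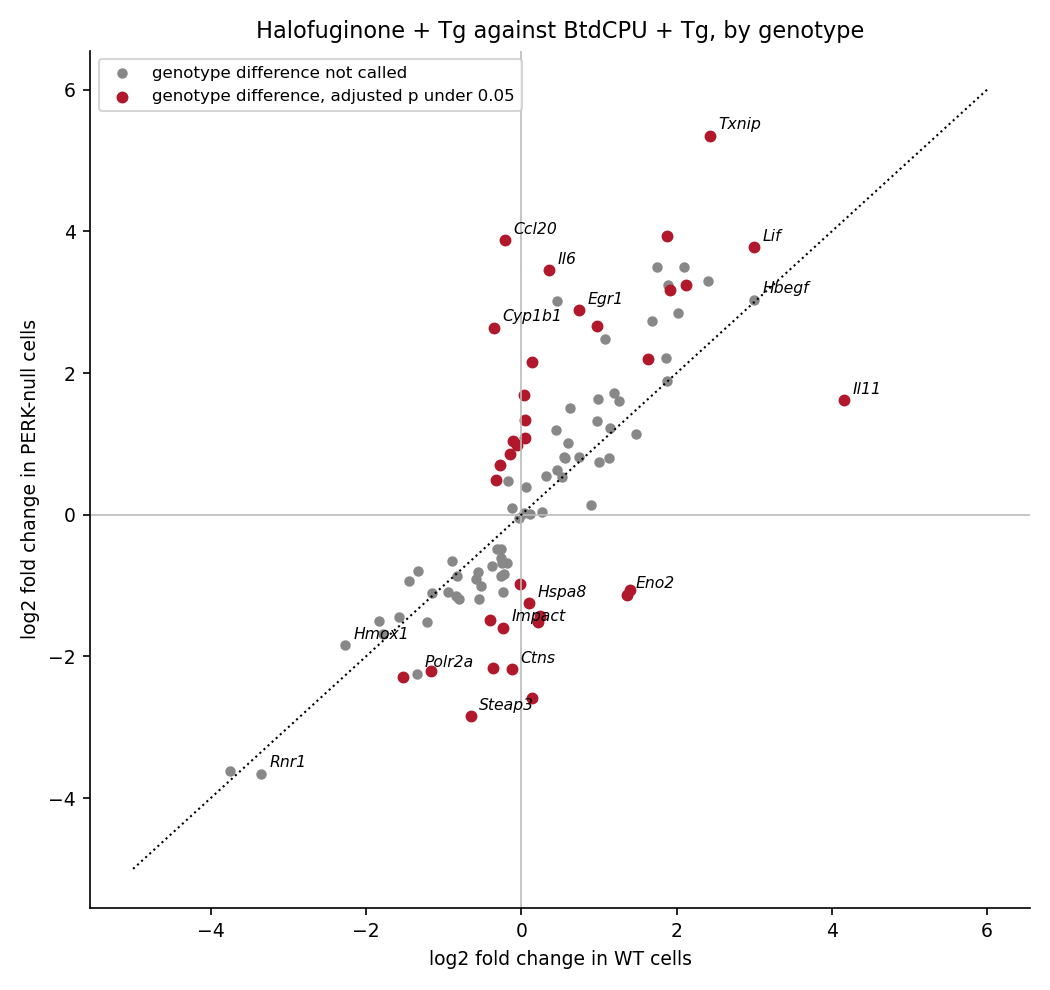
Log2 difference of halofuginone with Tg minus BtdCPU with Tg in WT (x axis) and PERK-null cells (y axis) for the 100 genes named in the text. Points on the dotted line differ equally in both, and red points passed the genotype test: Ccl20, Il6 and Cyp1b1 lie above the line, Hspa8 and Ctns below it, and Il11 and Eno2 to its right.

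The same compounds were also given to PERK-null cells without Tg. The difference between the compounds changed with Tg for 325 of 16065 genes (2.02%), 150 (0.934%) positive and 175 (1.09%) negative, and 217 of them were called in the main contrast. Scaling by library size alone gave 173 positive and 107 negative. This count moved with single libraries, from 124 without BtdCPU with Tg replicate 3 to 270 (128, 163, 191 and 203 without halofuginone with Tg replicate 1, BtdCPU alone replicate 2, BtdCPU alone replicate 3 and halofuginone alone replicate 3). Of the 50 ISR targets 16 passed, against 2.02% of all genes, and the list's median was 0.56 without Tg and -0.02 with it. Asns differed by 0.59 without Tg and 0.02 with it, a change of -0.58 (adjusted p = 0.0298). Eprs gave 0.64 and 0.04, a change of -0.60 (adjusted p = 0.0190). The count of 16 and the changes of Asns and Eprs with Tg were not checked in the alternatives given below. For Atf3 the difference was 2.36 without and 0.75 with Tg.

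Hmox1, Dusp6, Jun and Rrm2 differed more with Tg than without. Hmox1 gave -0.24 without and -1.84 with Tg, and Dusp6 0.39 and 2.21. Jun gave 0.72 and 2.19, and Rrm2 -0.12 and 1.01. Txnip differed by 4.97 without Tg and 5.35 with it, Polr2a by -2.21 and -2.24, and Cyp1b1 by 2.08 and 2.64. These last 3 did not pass the test of a change with Tg. For sterol synthesis 7 of 24 genes passed, the list's median was -0.46 without and 0.03 with Tg, and the sign of Hmgcs1 turned, from -1.43 to 0.50.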

How the data were processed

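The labels' protocols name a column RNA kit and strand-specific libraries with ribosomal depletion and mRNA selection, and the submitters' processing notes name DESeq and the build GRCm39. The aligner, the counter and its use of strand are not given in the sources used here. The authors deposited estimated counts per gene, unscaled between libraries, for 36930 entries, with 0.025 in place of 0 (50.6% of values) and 2.69% of the others not whole. Values of 0.025 were set to 0, 27 entries named by dates (0.206% to 0.278% of a library's counts) were left out, 39 repeated symbols were summed and counts were rounded, leaving 36856 symbols. A chi-square of counts found no library deposited in duplicate (at least 9.06 per degree of freedom). The floor of 3 counts covers counting error only, whereas SEs and intervals come from the fit below and include the spread between libraries.

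edgeR 4.0.16 in R 4.3.3 kept 16065 genes by filterByExpr, scaled by TMM and fitted 12 group means to all 36 libraries by robust quasi-likelihood (common dispersion 0.0199, 24 residual degrees of freedom). A shared fit pools the spread of all groups. Benjamini-Hochberg adjustment ran over all tested genes within a contrast, and calls used 0.05. The contrasts were halofuginone with Tg minus BtdCPU with Tg in PERK-null cells, its difference from WT cells and its difference from the compounds without Tg. Levels are edgeR cpm values (CPM) on library sizes scaled by TMM. Alternatives were DESeq2 1.42.0, other scalings, no filter, only the compared groups, a replicate block and each library left out.

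Named genes were fixed readouts, the 10 largest differences each way (adjusted p under 0.05, mean log2 CPM of at least 2, no overlap, more than 3 counts in each library of the lower group), up to 4 called members per list under the same filters on overlap and counts, and the 3 largest interactions each way. That rule gave 189 genes, of which 100 are named in the text. The comparison, the rule and the lists were chosen with earlier results of these data known. Overlaps of genes and promoter windows come from GENCODE and RefSeq annotations of GRCm38, which is not the submitters' build, so no coordinates were taken from the files.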

Additional observations from a re-analysis of the deposited data

Results flagged for a closer look

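The results below stand out because the difference between the compounds itself differed between 2 settings, by a test of that difference in edgeR's quasi-likelihood model with Benjamini-Hochberg adjustment. Each value is on the log2 scale. Between genotypes, PERK loss cannot be told apart from other differences between the cell lines. A positive value means that halofuginone stood further above BtdCPU, or less far below it, in PERK-null than in WT cells, or with Tg than without it. Each of the 3 libraries of a group enters every such value, and the 6 libraries of the PERK-null comparison enter all of them, so they are not independent of each other.

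Between genotypes, under Tg, positive values were 4.09 for Ccl20 (adjusted p = 0.000136), 3.09 for Il6, 2.14 for Egr1, 1.69 for Cebpd, 0.78 for Lif and 0.56 for Jun (adjusted p = 0.0466). H2-K1, of antigen presentation, gave 1.64. Il11 gave -2.54 (adjusted p = 1.69e-06). Cyp1b1 gave 2.99 (adjusted p = 4.41e-08). Txnip gave 2.92 and Arrdc4 1.13, while the glycolysis genes Pfkfb4 and Eno2 gave -2.46 and -2.49. The linker histones Hist1h1c and Hist1h1d gave 1.26 and 2.05. The transporter Slc43a2 gave 2.02.

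Negative values between genotypes were -2.06 for Ctns, -1.09 for Npc1, -0.96 for Mcoln1, -2.19 for Steap3 (adjusted p = 2.62e-08) and -2.72 for Plin4. Heat shock genes gave -1.35 for Hspa8 (adjusted p = 3.17e-09), -1.80 for Cryab, -1.67 for Hspa1a and -1.74 for Hspa1b. Impact gave -1.36, Klhl24 -1.05 and Layn -0.77. The ER genes Dnajb9 and Creld2 gave 0.97 and 1.01, Hmgcs1 gave 0.82, and the mitochondrial mRNAs CYTB, ND4, ND4L and ND6 gave 1.29, 1.03, 1.15 and 1.04.

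Between PERK-null cells with and without Tg, positive values were 1.47 for Jun (adjusted p = 3.35e-05), 1.83 for Dusp6, 2.07 for Ctgf, 2.06 for Cebpd and 1.37 for Hist1h1c. They were 1.92 for Hmgcs1, 1.42 for Hsd17b7, 1.25 for Creld2 and 1.13 for Rrm2. Negative values were -1.99 for Impact, -1.61 for Atf3, -1.16 for Ddit3 and -1.60 for Hmox1 (adjusted p = 0.000141). Kif21b gave -2.45, Klhl24 -1.23, Steap3 -1.11, Layn -0.90 and Npc1 -0.96. The 12 values for the genotype terms of CYTB, Hmgcs1, Jun, Lif, ND4, ND4L, ND6 and Plin4 and the Tg terms of Ctgf, Ddit3, Hist1h1c and Npc1 missed the threshold in at least 1 alternative, mostly when a library was left out. The other 41 passed in all those run.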

How the results depend on the processing

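The main count of 5874 genes stayed within 1.5 times in 12 alternatives: 6283 with DESeq2, 5875 with DESeq2's size factors, 5861 with library size alone, 5584 with no low-count filter, 7023 with only the compared groups, 7493 with a replicate block and 4833 to 5263 with a library left out. With a library left out, 4708 to 5073 of the 5874 genes were called again. Of the 100 named genes, 91 kept their call or lack of it and their direction throughout. Of these 100, 94 were called in the main fit, and most were picked for large differences. Their stability therefore does not stand for that of all calls. The count that differed by genotype moved from 1458 to 3285 with a replicate block, and ran from 971 to 1542 with a library left out. The count that changed with Tg moved from 325 to 667 with no low-count filter, 1133 with a replicate block, 869 with only the compared groups and 549 with DESeq2, and ran from 124 to 270 with a library left out. The cause was not tested, apart from fewer samples in the last case.

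Same-numbered libraries of the PERK-null groups correlated in their deviations from the group means by 0.0787, 0.0926 and 0.126. Libraries with unlike numbers correlated by -0.102 to 0.0164, so each library correlated best with its own number. The second principal component also set replicate 3 of both groups apart. The main fit did not take the numbers as pairs, and the replicate block was run as an alternative. That choice does not show that same-numbered libraries are unrelated. Any effect that they share was left in the spread of the main fit. With the replicate block, 18 interferon-stimulated genes in place of 9 were higher, 40 ribosomal protein genes in place of 16 were lower, 11 complex I genes in place of 6 were lower, 14 mitochondrial ribosomal protein genes in place of 4 were higher and no named gene lost its call. With only the compared groups, 29 ribosomal protein genes were lower and 13 mitochondrial ribosomal protein genes higher. Over all genes, the main fit had 2878 higher and 2996 lower of 16065. The block gave 3642 and 3851 of 16065, and only the compared groups gave 3553 and 3470 of 13795.

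Small differences that did not pass the test changed sign when a library was left out, with log2 ranges of -0.0362 to 0.0822 for Eif2ak4, -0.0324 to 0.100 for Eprs, -0.00513 to 0.0405 for Asns and -0.00793 to 0.210 for Chac1. Depth limits scarce genes such as Hist1h1b, Ccl20 and Il6, which stood under 1 CPM with BtdCPU. Trib3 also missed the threshold with library size alone (adjusted p = 0.0530).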

Other observations

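Other lists of stress biology are read against 17.9% higher and 18.6% lower over all genes. Of 15 genes of serine and one-carbon metabolism, 2 were higher and 4 lower with halofuginone. Without BtdCPU replicate 3, 1 was higher and 2 lower, and without halofuginone replicate 1 or 2, 1 was higher. Of 9 subunits of eIF2 and its exchange factor eIF2B, 4 were higher and 3 lower, but 1 was higher without BtdCPU replicate 2 or halofuginone replicate 2, and 2 without BtdCPU replicate 3. The phosphatase and kinase list of eIF2 alpha had 4 of 10 higher and 2 lower, or 1 lower without BtdCPU replicate 2 or halofuginone replicate 3. Feedback and growth brake genes of the ISR had 5 of 15 higher and 2 lower, with a median of -0.04. Of these, 3 were higher without BtdCPU replicate 3 or halofuginone replicate 1, and 1 was lower when any of the 6 libraries was left out. Of 25 mitochondrial chaperones and proteases, 2 were higher and 3 lower (0 without BtdCPU replicate 3), and the list's median against Tg alone was 0.34 with halofuginone and 0.29 with BtdCPU, on shared Tg libraries. Genes of calcium stores, which handle the ion that Tg releases, had 1 of 18 higher (2 without BtdCPU replicate 3) and 5 lower. Of 11 genes of asparagine synthesis and transamination, 0 were higher and 3 lower. Without BtdCPU replicate 1 or halofuginone replicate 2, 1 was higher, and without BtdCPU replicate 2 or halofuginone replicate 1 or 3, 1 was lower.

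Markers of the other cell types given here were scarce, apart from the neural ones. Endothelial markers summed to 1.88 to 2.05 CPM with BtdCPU and 1.22 to 2.02 CPM with halofuginone, with 1 of 5 lower. Neural markers summed to 43.6 to 50 CPM with BtdCPU and 50.8 to 68.9 CPM with halofuginone, with 1 of 5 tested and 0 called. Epithelial markers stayed at or under 2.65 CPM, muscle markers at or under 0.652 CPM, pluripotency markers at or under 0.802 CPM and adipocyte markers at or under 0.0828 CPM in each library.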
